A study of Mus musculus with 39 samples.

Results

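The insulin-like growth factor system was followed through 9 genes: the ligand gene Igf1, the receptor genes Igf1r and Igf2r, and the binding-protein genes Igfbp2, Igfbp3, Igfbp4, Igfbp5, Igfbp6 and Igfbp7. They were chosen by symbol among the 21561 Ensembl genes that both deposited tables list. RNA was sequenced from the gubernaculum, the ligament-like cord that guides the testis to the scrotum, and from the testis of untreated male C57BL/6J mice. WT mice carried the mouse Insl3 gene, INSL3-KI mice carried the minke whale INSL3 coding sequence in place of it at the mouse locus under the native regulatory elements, and INSL3-KO mice were Insl3 knockouts. All genotypes were sampled at postnatal day 8 (P8), in both tissues. At P23 the testis was again sampled in every genotype but the gubernaculum without INSL3-KO, and at P40 testis was taken without INSL3-KO, which gives 13 groups of 3 biological replicates. By design both mutants lack the mouse ligand, though libraries labelled INSL3-KO testis at P8 held Insl3 reads, so a difference from WT cannot separate a property of the whale ligand from the loss of the mouse one.

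IGF1 and IGF2 act through the tyrosine kinase receptor IGF1R, which drives growth and differentiation through insulin receptor substrates and the PI3K-AKT cascade. IGF2R, the cation-independent mannose 6-phosphate receptor, takes up IGF2 for degradation. The binding proteins hold the ligands in extracellular fluid, slow or ease their access to IGF1R and are cut by proteases such as PAPPA. In muscle, IGF signalling promotes myoblast differentiation and IGFBP5 is a classical product of differentiating myoblasts, and in the testis IGF1 acts on Sertoli and Leydig cells.

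Library totals ranged from 29861447 to 45260372 counts, with a median of 36944626. The first table held 27 libraries and the second 12, those labelled INSL3-KO and those of WT testis at P23. Of 11 comparisons between genotypes, 6 therefore crossed the tables, and in these table and genotype cannot be told apart. Insl3 was at 61.8 to 78.0 CPM in WT testis at P8 and at 0.373 to 0.738 CPM in INSL3-KI, but the 3 libraries labelled INSL3-KO testis at P8 held 13.4 to 17.7 CPM, against 0 to 0.117 CPM in INSL3-KO testis at P23. INSL3-KI testis held 1.42 to 2.19 CPM of Insl3 at P23 and 10.8 to 12.2 CPM at P40. Summed over 10 skeletal muscle genes, WT gubernaculum held 38600 to 41600 CPM at P8, INSL3-KI 760 to 1320 CPM and INSL3-KO 7360 to 8030 CPM. Of 8 fibroblast genes WT gubernaculum held 45500 to 49000 CPM at P8 and the mutants 18500 to 31000 CPM, and of 5 smooth muscle genes WT held 988 to 1320 CPM and the mutants 7250 to 19800 CPM. Epididymal genes summed to at most 0.0988 CPM in WT gubernaculum at P8 and to 651 to 1650 CPM in the mutants, and hepatocyte genes to 164, 2120 and 7870 CPM in INSL3-KO gubernaculum against at most 16.4 CPM in the other P8 gubernacula. In testis, 6 spermatid genes summed to 6610 to 12300 CPM in WT at P23 and P40, to 32.9 to 449 CPM in INSL3-KI at P23, to 8.88 to 28.6 CPM in INSL3-KI at P40 and to 12.5 to 14.3 CPM in INSL3-KO at P23. The part of these differences in cell content in the results that follow was not tested. Scalings on Sertoli or fibroblast genes, where given, show a change relative to those genes alone, and none used muscle genes. In bulk tissue, fewer cells of a type and less RNA per cell cannot be told apart.

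On the GRCm38 assembly with GENCODE vM21 gene models, Igf1 (ENSMUSG00000020053) lies on the plus strand at chr10:87858265-87937042, Igf1r (ENSMUSG00000005533) on the plus strand at chr7:67952827-68233668 and Igf2r (ENSMUSG00000023830) on the minus strand at chr17:12682406-12769664. Igfbp2 (ENSMUSG00000039323), at chr1:72824503-72852474 on the plus strand, and Igfbp5 (ENSMUSG00000026185), at chr1:72857932-72874884 on the minus strand, face each other tail to tail with 5457 bases between their ends. Igfbp3 (ENSMUSG00000020427) and Igfbp4 (ENSMUSG00000017493) are both on chromosome 11, at chr11:7206086-7213923 on the minus strand and chr11:99041244-99054392 on the plus strand. Igfbp6 (ENSMUSG00000023046) lies at chr15:102144362-102149511 on the plus strand, and Igfbp7 (ENSMUSG00000036256) at chr5:77349240-77408041 on the minus strand.

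All 9 genes had promoter entries in the RefSeq set for GRCm38.p6. The 250 bases before the first listed start site are shown for the 4 genes that were called lower in INSL3-KI gubernaculum at P8, so that the regions upstream of genes that moved together can be read side by side. Capitals mark E-boxes, here any CANNTG, a motif that reads the same way on both strands and is the core bound by MyoD-type and other basic helix-loop-helix factors.
Igfbp2, chr1:72824230-72824479, plus strand: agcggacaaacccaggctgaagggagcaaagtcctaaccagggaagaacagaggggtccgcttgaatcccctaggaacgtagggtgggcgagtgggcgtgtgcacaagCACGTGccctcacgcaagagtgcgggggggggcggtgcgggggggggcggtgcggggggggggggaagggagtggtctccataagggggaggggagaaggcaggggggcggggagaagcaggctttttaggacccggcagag
Igfbp5, chr1:72874866-72875115, minus strand: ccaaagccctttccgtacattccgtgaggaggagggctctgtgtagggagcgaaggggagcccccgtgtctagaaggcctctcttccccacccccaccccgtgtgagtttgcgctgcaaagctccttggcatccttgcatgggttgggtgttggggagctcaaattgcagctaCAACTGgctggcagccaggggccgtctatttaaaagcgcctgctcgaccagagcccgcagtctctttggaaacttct
Igfbp6, chr15:102143936-102144185, plus strand: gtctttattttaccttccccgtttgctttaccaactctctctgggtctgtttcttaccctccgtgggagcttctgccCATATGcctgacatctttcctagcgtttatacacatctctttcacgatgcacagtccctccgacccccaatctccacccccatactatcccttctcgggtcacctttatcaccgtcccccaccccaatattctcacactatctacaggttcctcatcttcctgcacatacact
Igf2r, chr17:12769707-12769956, minus strand: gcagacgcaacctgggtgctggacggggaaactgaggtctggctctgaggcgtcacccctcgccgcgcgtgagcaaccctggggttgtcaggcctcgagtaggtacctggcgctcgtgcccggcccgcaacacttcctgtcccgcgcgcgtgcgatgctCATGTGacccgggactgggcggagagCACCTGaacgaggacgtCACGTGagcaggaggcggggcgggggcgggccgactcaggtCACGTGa
Igfbp2, Igfbp5 and Igfbp6 each held 1 E-box and Igf2r held 4, and 66.2% of the 32851 promoters of the set held at least 1 in the same window. The motif GGGCGG, searched on both strands, stood 3 times each in Igfbp2 and Igf2r and in 32.7% of all promoters. TATAAA, searched on both strands, stood once in Igfbp6 and in 12.4% of all promoters. Among the members not called there, Igf1, Igfbp3 and Igfbp4 also held 1 E-box each, and Igf1r and Igfbp7 held 0. GGGCGG stood 2 times in Igf1r and 4 times in Igfbp7, and TATAAA once in Igfbp4. Each motif thus also stood in members that were not called. A match is a description of the letters and not a bound site.

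Per unit of transcript length, the binding proteins were the most abundant members in WT gubernaculum at P8. Igfbp2 averaged 289.9 ± 77.1 FPKM and Igfbp7 274 ± 51.1 FPKM, followed by Igfbp5 at 207 ± 30.7, Igfbp6 at 198 ± 4.45, Igfbp4 at 168 ± 17.6 and Igfbp3 at 103 ± 19.5 FPKM (SD, n = 3). Igf2r averaged 47.4 ± 9.46 FPKM, Igf1 27.5 ± 2.26 FPKM and Igf1r 7.32 ± 0.994 FPKM in the same libraries. In WT testis at P8, Igfbp7 averaged 301 ± 62.3 FPKM and Igf1 44.8 ± 10.7 FPKM, and at P40 these levels were 53.4 ± 7.15 and 1.52 ± 0.362 FPKM.

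**Figure D1:**
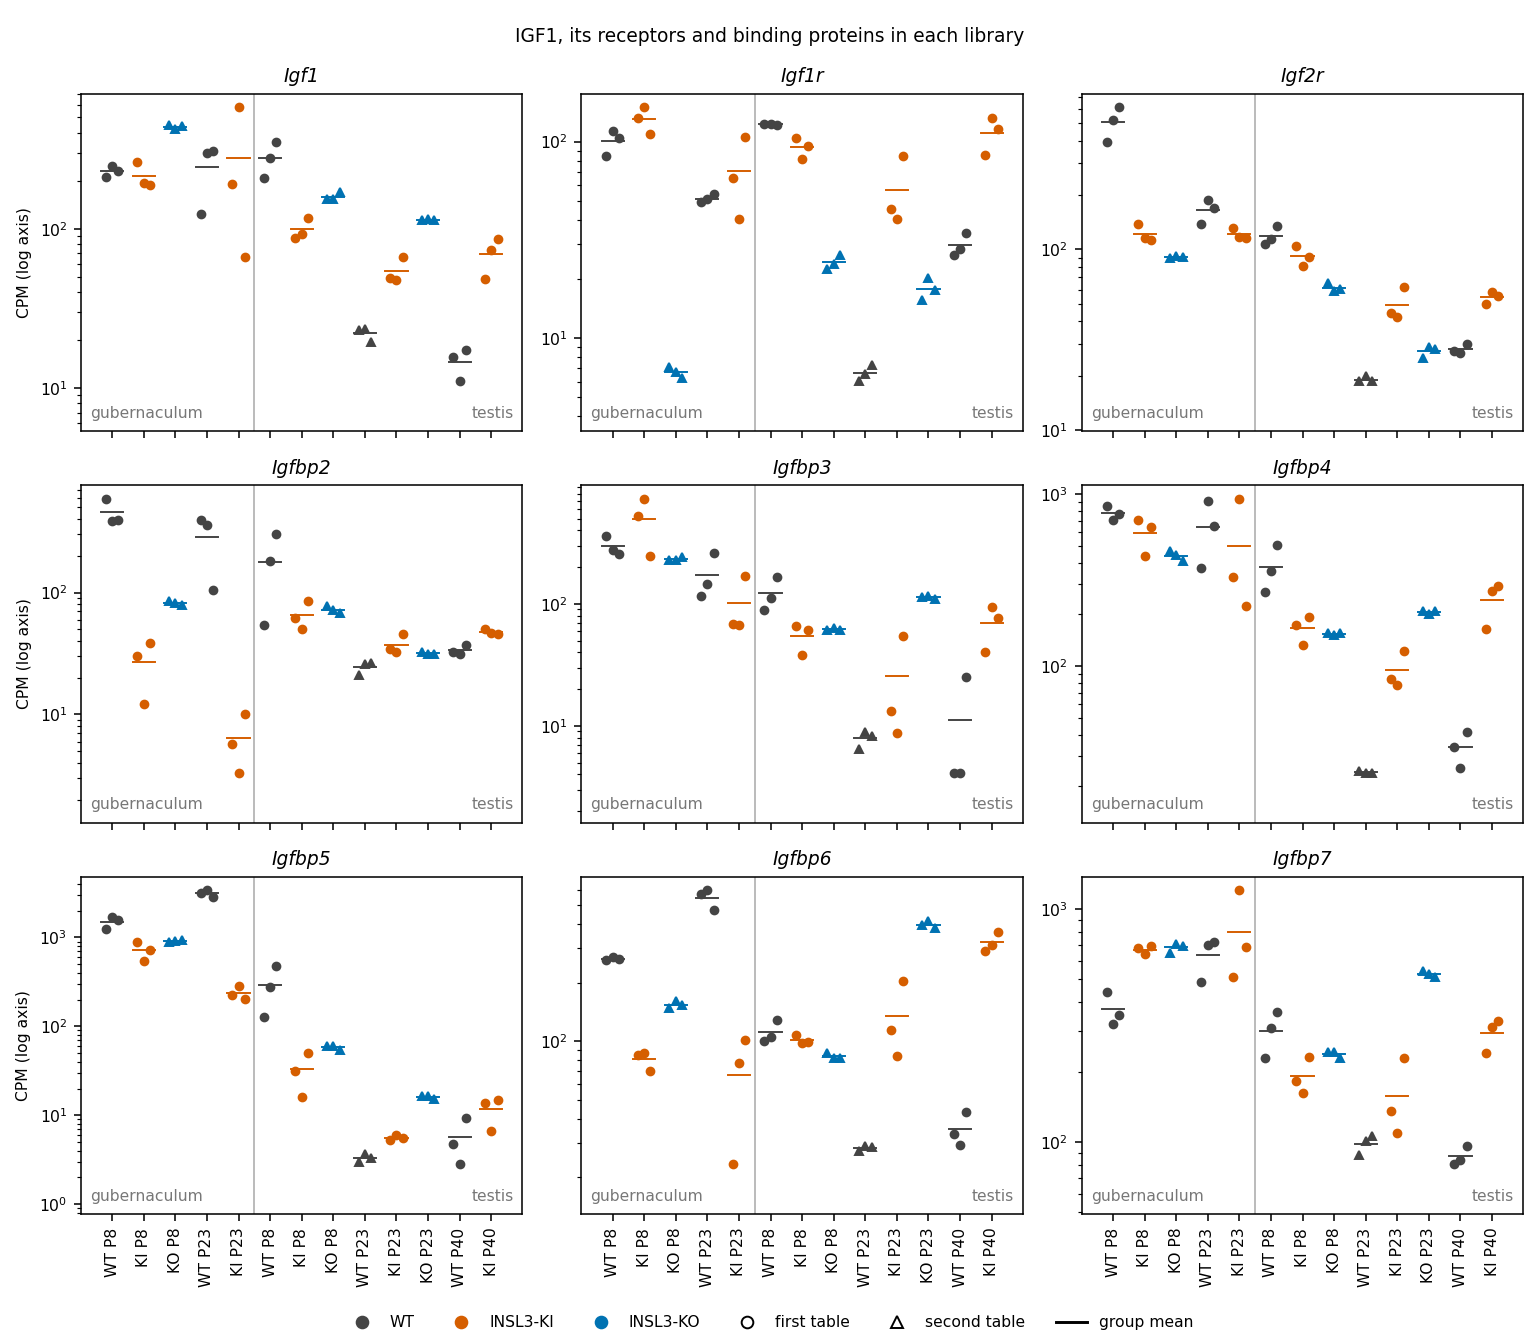
Level of each member in each library, as CPM on a log axis, by group and tissue (grey line between them), with circles for the first table, triangles for the second and a bar at the mean of 3 libraries. Igfbp5 spans the widest range, from a mean of 3140 CPM in WT gubernaculum at P23 to 3.31 CPM in WT testis at P23, and Igfbp7 the narrowest.

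Across the 13 groups the members differed in how far they ranged, in counts scaled to library size by TMM (CPM). Igfbp5 ranged 950-fold between its highest and lowest group means, Igfbp2 71.3-fold, Igfbp3 63.3-fold and Igfbp7 9.22-fold. Gubernaculum groups held the highest mean of each of the 9 genes, and testis groups the lowest mean of 8, the exception being Igfbp2, lowest at 6.39 CPM in INSL3-KI gubernaculum at P23. For Igf1r this order mixes counts of unlike gene models, as its gene model differs between the deposited tables. Many neighbours in these orders were not separated: the library ranges of adjacent groups overlapped in 11 of 12 steps for Igfbp3, in 10 for Igfbp2 and Igfbp7, and in 4 for Igfbp5. At the top, Igfbp5 ran in separate steps from 3140 CPM in WT gubernaculum at P23 to 1501 CPM in WT at P8, 916 CPM in INSL3-KO at P8 and 718.5 CPM in INSL3-KI at P8. For Igf1, INSL3-KO gubernaculum at P8 had the highest mean, 438 CPM, though INSL3-KI gubernaculum at P23 ranged from 66.2 to 578 CPM and enclosed it, and the next 5 groups lay between 214 and 278.5 CPM with overlapping neighbours.

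At P8, INSL3-KI gubernaculum held less mRNA of 4 members than WT, and the strongest fall was that of Igfbp2, the binding protein with the highest level per length in WT gubernaculum at that age. Igfbp6, a binding protein with a preference for IGF2, and Igf2r also fell, and Igfbp5 fell by about the size of the threshold. Calls needed an adjusted p below 0.01 in edgeR's quasi-likelihood test together with a change of 2-fold or more. By this rule 4 of 9 members were called lower, where 9.70% of the 15500 genes tested were called lower, and the median log2 fold change was -0.35 over the members and 0.02 over all genes.

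Igfbp2 stood at 587, 387 and 392 CPM in the WT libraries and at 30.2, 12.1 and 38.9 CPM in INSL3-KI, which is -4.05 ± 0.42 on the log2 scale (SE, adjusted p = 0.0001), or 16.6-fold lower. Every INSL3-KI library lay far under every WT library. Igf2r stood at 393, 521 and 611 CPM in WT and at 139, 116 and 113 CPM in INSL3-KI, a change of -2.03 ± 0.17 (adjusted p = 3.3e-05). Igfbp6 stood at 261, 271 and 264 CPM in WT and at 85.1, 86.4 and 70.2 CPM in INSL3-KI, a change of -1.70 ± 0.11 (adjusted p = 7.1e-06). Both genes showed separate groups, with Igfbp6 the least variable member within WT. Igfbp5 stood at 1242, 1699 and 1562 CPM in WT and at 885, 550 and 721 CPM in INSL3-KI, a change of -1.04 ± 0.20 (adjusted p = 0.0024), a call that ended when WT replicate 2 was left out (-0.96), without INSL3-KI replicate 2 (-0.88) or without INSL3-KI replicate 3, where the adjusted p was 0.013. It ended as well with library size as the only scaling (-0.73, adjusted p = 0.014) and with limma on log2(FPKM + 1) and log2(FPKM + 0.1) (-0.71 and -0.72).

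The ligand and the signalling receptor did not pass the test in this comparison. Igf1 stood at 211, 248 and 230 CPM in WT and at 261, 194 and 187 CPM in INSL3-KI, with overlapping groups and a log2 fold change of -0.08 (95% interval -0.36 to 0.20). Igf1r differed by 0.39 (0.10 to 0.68; adjusted p = 0.056). Igfbp7, which binds IGFs weakly and is abundant in vessels and smooth muscle, stood at 442, 322 and 352 CPM in WT and at 680, 639 and 692 CPM in INSL3-KI, a difference of 0.87 ± 0.14 with an adjusted p of 0.0012 that stayed under the fold threshold. Igfbp3, the main carrier of IGF1 in serum, stood at 528, 725 and 248 CPM in INSL3-KI, so that its 3 libraries enclosed the WT range of 258 to 357 CPM, at a difference of 0.77 ± 0.34. Igfbp4 was at -0.35 ± 0.18, with overlapping groups.

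Muscle and fibroblast genes were lower in the same libraries, as given above. When the libraries were scaled on the 8 fibroblast genes in place of all genes, which moved the median of all genes by 1.05, Igfbp2 kept its call at -3.06 ± 0.31 (adjusted p = 8.5e-08). Igf2r then differed by -0.99 ± 0.22, Igfbp6 by -0.64 ± 0.22 and Igfbp5 by -0.03 ± 0.20, and none of these passed both thresholds. Under the same scaling 3 members were called higher in INSL3-KI, namely Igfbp7 at 1.92 ± 0.23 (adjusted p = 5.6e-07), Igfbp3 at 1.86 ± 0.33 (adjusted p = 5.9e-05) and Igf1r at 1.46 ± 0.24 (adjusted p = 3.1e-05). Over all genes, that scaling called 7803 of 15500 higher and 719 lower. Col3a1 alone made up 29.6 to 46.1% of the counts of the fibroblast list. No scaling was made on the skeletal muscle genes, so their part in these differences was not tested.

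INSL3-KO gubernaculum at P8 also held less Igfbp2 and Igf2r than WT, with smaller differences of Igfbp5 and Igfbp6. The libraries came from different tables. Igfbp2 stood at 85.9, 82.6 and 79.5 CPM in INSL3-KO, a change from WT of -2.47 ± 0.18 (adjusted p = 2.4e-05), and Igf2r at 90.1, 92.0 and 90.5 CPM, a change of -2.49 ± 0.16 (adjusted p = 1.4e-05). With Igf1r, whose gene model differs between the tables, 3 of 9 members were called lower, where 15.2% of 15609 genes were. Igfbp4, Igfbp5 and Igfbp6 differed by -0.82 ± 0.09, -0.72 ± 0.12 and -0.79 ± 0.06, under the fold threshold though with adjusted p of 0.00022, 0.0012 and 4.4e-05. Igfbp7, at 0.88 ± 0.12, was also under it, and Igfbp3, at -0.36 ± 0.13, did not pass the test. Scaled on the fibroblast genes, Igf2r and Igfbp2 kept their calls at -1.82 ± 0.14 and -1.81 ± 0.19, and Igf1 at 1.59 ± 0.09 and Igfbp7 at 1.53 ± 0.14 were called higher. Over all genes, that scaling called 5375 of 15609 higher and 1166 lower.

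Igf1 was at 448, 425 and 441 CPM in INSL3-KO gubernaculum, above every WT and INSL3-KI library of P8, a difference of 0.93 ± 0.08 from WT (adjusted p = 5.3e-05) that did not reach the fold threshold. The liver is the main source of circulating IGF1, and the INSL3-KO libraries held hepatocyte genes, at 7870, 2120 and 164 CPM in replicates 1, 2 and 3. The 6 adipocyte genes differed too, summing to 1970 to 2210 CPM in INSL3-KO, 784 to 1050 CPM in INSL3-KI and 92.8 to 107 CPM in WT. The part of either list in the level of Igf1 was not tested.

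The mutants differed from each other in Igf1 and Igfbp2. INSL3-KI gubernaculum had less Igf1 than INSL3-KO, with a change of -1.05 ± 0.13 (adjusted p = 0.00042), and less Igfbp2, with a change of -1.62 ± 0.38 (adjusted p = 0.0075). These were 2 of 9 members called lower, where 10.5% of 15642 genes were, and Igf1r, on unlike gene models, was called higher, where 11.9% were. The call of Igf1 lay at the fold threshold and was lost without INSL3-KI replicate 2 (-0.98), without INSL3-KI replicate 3 (-0.97) and with library size as the only scaling (-0.86), and that of Igfbp2 was lost in 4 of the 6 fits without 1 library, those without INSL3-KI replicate 1 or any 1 INSL3-KO library, with adjusted p up to 0.025. The call of Igfbp2 was also lost with library size as the only scaling (-1.44, adjusted p = 0.012). Both calls were lost with all groups in 1 fit (adjusted p = 0.16 for Igf1 and 0.027 for Igfbp2) and in both limma fits. Scaled on fibroblast genes, Igfbp2 kept its call at -1.25 ± 0.30 and Igf1, at -0.64 ± 0.15, did not. Igf2r differed by 0.42 ± 0.09, Igfbp5 by -0.37 (95% interval -0.68 to -0.05) and Igfbp7 by -0.05 (-0.18 to 0.09), none of which was called. Igfbp3 was at 1.08 ± 0.34, Igfbp4 at 0.43 ± 0.17 and Igfbp6 at -0.95 ± 0.09, also not called.

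**Figure D2:**
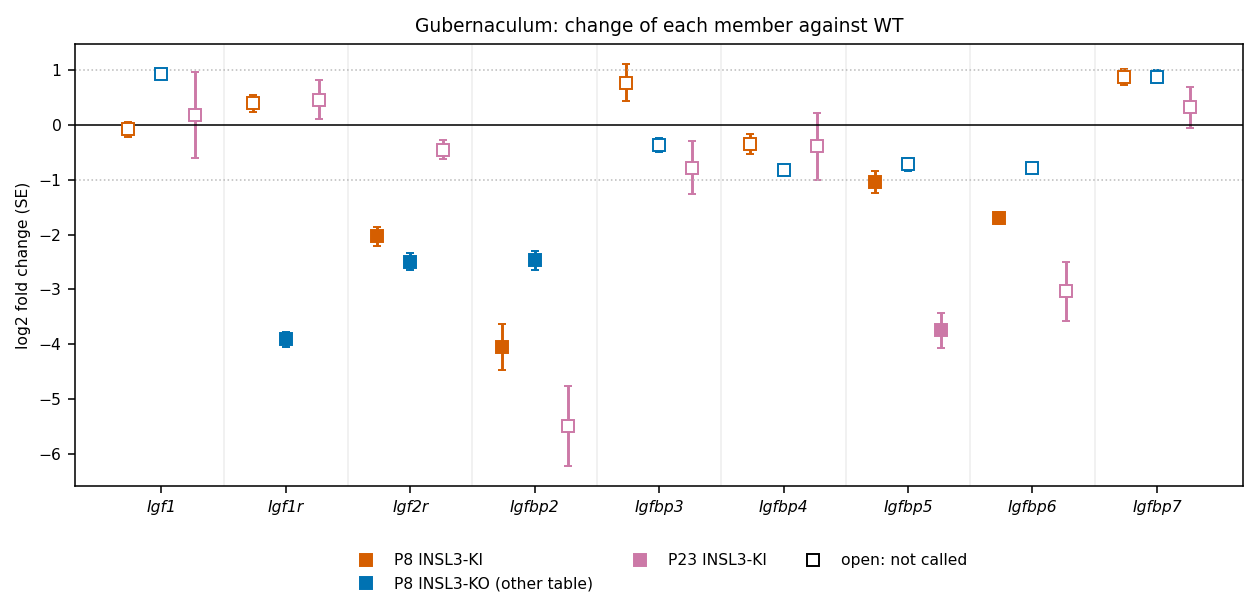
Log2 fold change of each member against WT gubernaculum of the same age, with bars of 1 SE, filled where the gene was called, dotted lines at a fold of 2. Igfbp2 is below 0 in all 3 comparisons, at -4.05, -2.47 and -5.49, and Igf1r of INSL3-KO compares unlike gene models.

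At P23, Igfbp5 was the 1 member that edgeR called between INSL3-KI and WT gubernaculum. It stood at 3201, 3382 and 2837 CPM in WT and at 224, 281 and 206 CPM in INSL3-KI, a change of -3.74 ± 0.32 (adjusted p = 0.0032), 13.3-fold lower. Of the 15082 genes tested, 2.35% were called lower. Igfbp2 stood at 397, 357 and 106 CPM in WT and at 5.70, 3.33 and 10.1 CPM in INSL3-KI, and Igfbp6 at 571, 595 and 469 CPM in WT and at 23.3, 77.5 and 101 CPM in INSL3-KI. Their groups did not overlap and their differences of -5.49 ± 0.73 and -3.03 ± 0.54 were large, but their adjusted p of 0.011 and 0.024 missed the threshold. By DESeq2, 3 members were called lower in this comparison, where it called 1397 of 17905 genes lower and 838 higher. Igf2r was at -0.45 ± 0.17 with groups that did not overlap either, and Igf1, Igf1r, Igfbp3, Igfbp4 and Igfbp7, whose groups overlapped, were at 0.18, 0.46, -0.78, -0.39 and 0.32, none of them called.

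The P23 gubernacula varied strongly within a group, with a biological coefficient of variation of 0.627 in INSL3-KI and 0.347 in WT. Adipocyte genes summed to 6360, 15000 and 494 CPM in the 3 INSL3-KI libraries, epididymal genes to 2300, 1.11 and 7480 CPM and skeletal muscle genes to 958, 15.3 and 646 CPM. WT gubernaculum held 67500 to 119000 CPM of the skeletal muscle genes at that age, and 19300 to 47900 CPM of the fibroblast genes against 4810 to 15900 CPM in INSL3-KI. The part of these lists in the lower Igfbp5 was not tested. Igf1 followed no common level there, at 191, 578 and 66.2 CPM, and Igfbp4, a binding protein cut by PAPPA, was at 328, 937 and 223 CPM. For both genes the second library was the highest. It held the most adipocyte genes, and the fewest skeletal muscle and epididymal genes. It also held the most of 6 endothelial genes, summing to 692, 2330 and 238 CPM, and of 6 macrophage genes, at 90.1, 376 and 173 CPM. The part of these lists in Igf1 and Igfbp4 was not tested. The call of Igfbp5 was lost without any 1 WT library or INSL3-KI replicate 1 (-3.69 to -3.81, adjusted p up to 0.026) and when scaled on fibroblast genes (-1.91, adjusted p = 0.092), a scaling that moved the median of all genes by 1.83.

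Igfbp5 was also the 1 member for which edgeR called a difference between the ages in the change in INSL3-KI gubernaculum. The change at P23 exceeded that at P8 by -2.72 ± 0.32 on the log2 scale (interaction, adjusted p = 0.0042), 1 of 9 members where 0.194% of 16016 genes were called in that direction. That call was lost in 8 of the 12 fits without 1 library, all but those without INSL3-KI P23 replicate 2 or 3 or WT P23 replicate 1 or 3, with values from -2.56 to -2.88 and adjusted p up to 0.02. It was lost as well with the replicate block, and on fibroblast scaling (-1.88 ± 0.80, adjusted p = 0.32), where 0 of 16016 genes were called either way. The other 8 members lay between -1.57 (Igfbp3) and 1.55 (Igf2r) and were not called by edgeR. DESeq2 called 2 members here, 1 higher and 1 lower, where it called 386 of 19702 genes higher and 738 lower. With all groups in 1 fit, 2 members were also called, 1 in each direction, where 188 of 16342 genes were higher and 302 lower. In WT gubernaculum Igfbp5 was higher at P23 than at P8 by 1.08 ± 0.21 (adjusted p = 0.0075) and Igfbp6 by 1.06 ± 0.15 (adjusted p = 0.0032), while Igf2r was lower by -1.60 ± 0.21 (adjusted p = 0.0022). With 2 of 9 members called higher, the share called higher over all genes was 6.17%, and 4.34% were called lower. Igf1r, at -0.96 ± 0.14, stayed under the fold threshold, and Igf1, Igfbp2, Igfbp3, Igfbp4 and Igfbp7, at 0.10, -0.65, -0.76, -0.24 and 0.79, did not pass the test. The call of Igfbp5 in WT ended without any 1 library but P23 replicate 1, at 0.97 to 1.18, that of Igfbp6 without any 1 P8 library or P23 replicate 2, at 0.99 to 1.07, and that of Igf2r without P8 replicate 2 or 3, at -1.59 and -1.45. In INSL3-KI the mean level of Igfbp5 was 237 CPM at P23 and 718.5 CPM at P8, a difference that was not tested.

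Igf1r needs a separate reading across the tables. Counts and FPKM imply a transcript of 12.1 kb for Igf1r in the first table and 4.96 kb in the second, a ratio of 0.394, whereas the ratio was between 0.991 and 1.01 for the other 8 members. GENCODE vM21 holds 1 protein-coding transcript of Igf1r, of 11409 bases. Of 15499 genes with a length in both tables, 11314 (73%) agreed within 5%. A count of Igf1r in the second table therefore covers a shorter gene model, and CPM of the tables cannot be set side by side. In FPKM, Igf1r stood at 6.26, 8.23 and 7.47 in WT gubernaculum at P8 and at 1.47, 1.38 and 1.27 in INSL3-KO, a difference of -1.80 ± 0.11 with limma on log2(FPKM + 1) (adjusted p = 1.6e-05), in place of -3.91 by count. In P8 testis, FPKM values were 12.3, 12.0 and 11.9 in WT and 5.94, 6.24 and 6.89 in the libraries labelled INSL3-KO, a difference of -0.83 ± 0.08 that was under the fold threshold, in place of -2.34 by count. Which part of the transcript the shorter model covers is not given in the sources used here, so the FPKM values are also not free of the difference.

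**Figure D3:**
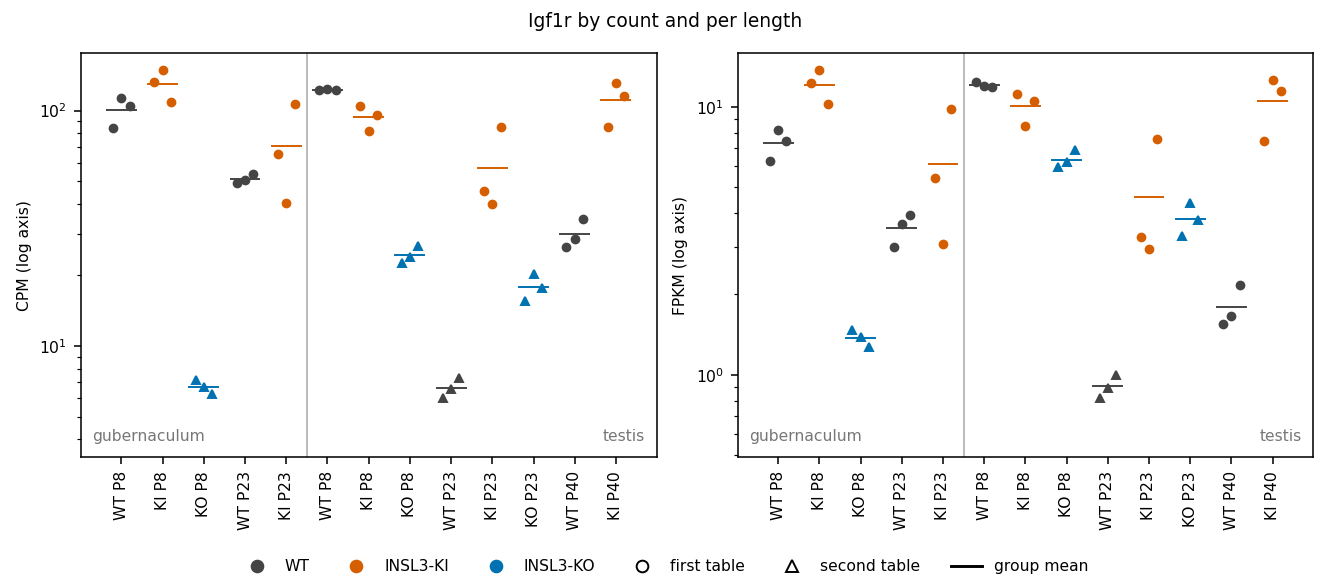
Igf1r in each library by count (CPM, left) and per length (FPKM, right), both on log axes, with circles for the first table, triangles for the second and a bar at the group mean. The libraries of the second table, with a gene model of 4.96 kb against 12.1 kb, lie low by count and closer to the others in FPKM, where INSL3-KI and INSL3-KO testis at P23 overlap.

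In WT testis all 9 members were lower at P40 than at P8, while 27.8% of 16892 genes were called lower and 31.9% higher. Igfbp5 fell the most, from 126, 278 and 473 CPM at P8 to 4.73, 2.81 and 9.35 CPM at P40, a change of -5.69 ± 0.64 (adjusted p = 8.1e-05). Igf1 fell from 208, 278 and 349 CPM to 15.6, 11.03 and 17.3 CPM, a change of -4.26 ± 0.26 (adjusted p = 2.2e-06). Igf1r fell by 2.05 ± 0.12 and Igfbp6 by 1.67 ± 0.17 on the log2 scale, Igf2r by 2.09 ± 0.12, Igfbp3 by 3.45 ± 0.72, Igfbp4 by 3.49 ± 0.28 and Igfbp7 by 1.80 ± 0.17. For all 9 genes every P40 library lay under every P8 library, and the median over the 9 members was -2.43. The call of Igfbp2, at -2.43 ± 0.54, was lost without WT P8 replicate 2 or any 1 of the WT P40 libraries, and that of Igfbp3 without WT P40 replicate 1. Spermatid genes summed to 1.58 to 2.10 CPM at P8 and to 6610 to 8110 CPM at P40, and fibroblast genes to 7110 to 21100 CPM and 344 to 810 CPM. Scaled on 9 Sertoli cell genes, which moved the median of all genes by 0.74, all 9 members stayed below 0 and the calls of Igfbp2 (-1.79, adjusted p = 0.013) and Igfbp6 (-0.96) were lost.

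At P8, before spermatids appear, gubernaculum exceeded testis of WT mice in 5 of 9 members, where 14.1% of 15624 genes were called higher. Igf2r differed by 2.12 ± 0.18 (adjusted p = 7.8e-05), Igfbp5 by 2.38 ± 0.44 (adjusted p = 0.0027) and Igfbp6 by 1.27 ± 0.12 (adjusted p = 0.00012). Igfbp3 and Igfbp4 differed by 1.30 ± 0.25 and 1.06 ± 0.22. With library size as the only scaling the calls of Igf2r and Igfbp5 remained and 3 were lost, Igfbp6 being then at 0.85. The call of Igfbp4 was lost in 5 of the 6 fits without 1 library (0.85 to 1.12), all but that without testis replicate 3, that of Igfbp3 without gubernaculum replicate 1 or 2 or testis replicate 2 (1.15 to 1.35), and that of Igfbp5 without replicate 2 of either tissue (2.28 and 2.32). Igf1 and Igf1r did not pass the test, with differences of -0.26 (95% intervals -0.63 to 0.10 for Igf1 and -0.50 to -0.03 for Igf1r). Igfbp2 was at 1.36 ± 0.54 and Igfbp7 at 0.33 ± 0.20, neither of them called.

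In INSL3-KI testis at P8, Igf1 was the 1 member of 9 called lower, where 3.25% of 15702 genes were. It stood at 208, 278 and 349 CPM in WT and at 87.7, 93.0 and 117 CPM in INSL3-KI, a change of -1.47 ± 0.21 (adjusted p = 0.0056), 2.77-fold lower. The groups were separate, but the call was lost without any 1 library but WT replicate 1, with values from -1.25 to -1.61 and adjusted p up to 0.036. Igfbp5 stood at 31.8, 16.2 and 50.4 CPM in INSL3-KI against 126, 278 and 473 CPM in WT, a difference of -3.14 ± 0.60 with an adjusted p of 0.011, which missed the threshold, and Igfbp4 and Igfbp3 differed by -1.17 ± 0.25 and -1.14 ± 0.29 without passing it. By DESeq2, 4 members were called lower in this comparison, where it called 1135 of 18464 genes lower and 1013 higher.

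The WT libraries of P8 testis spread widely in the same genes. Igfbp2 was at 54.1, 182 and 302 CPM and Igfbp5 at 126, 278 and 473 CPM in replicates 1, 2 and 3, while fibroblast genes summed to 7110, 11400 and 21100 CPM, against 3250 to 5400 CPM in INSL3-KI and the libraries labelled INSL3-KO. Spermatocyte genes summed to 38.6 to 80.2 CPM in WT, to 325 to 1160 CPM in INSL3-KI and to 468 to 471 CPM in the libraries labelled INSL3-KO, and the part of these lists was not tested. Leydig cell genes summed to 542 to 663 CPM in WT and to 183 to 215 CPM in INSL3-KI. Igfbp6, in contrast, was at 100 to 129 CPM in WT and at 97.8 to 108 CPM in INSL3-KI, a difference of -0.12 (95% interval -0.35 to 0.12). Igf1r was at -0.37 ± 0.10, Igf2r at -0.35 ± 0.13, Igfbp2 at -1.44 ± 0.57 and Igfbp7 at -0.62 ± 0.20, none of them called.

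The libraries labelled INSL3-KO testis at P8, which held Insl3 at the level given above and stand in the other table, had lower Igfbp4 at 156, 151 and 156 CPM against 269, 358 and 503 CPM in WT, a change of -1.30 ± 0.21 (adjusted p = 0.0016). Igfbp5 was lower there too, at 59.7, 60.1 and 54.5 CPM, a change of -2.34 ± 0.42 (adjusted p = 0.0029). Counting Igf1r, 3 of 9 members were called lower, where 8.37% of 15723 genes were. Igf1 stood at 153, 154 and 170 CPM, between WT and INSL3-KI, and differed by -0.81 ± 0.17 from WT (adjusted p = 0.006), under the fold threshold. Both calls were lost when any 1 of the libraries labelled INSL3-KO was left out, with adjusted p from 0.01 to 0.011 for Igfbp4 and from 0.017 to 0.018 for Igfbp5, and that of Igfbp5 also without WT replicate 2 (-2.38, adjusted p = 0.011). Igf2r was at -0.95 ± 0.10 and Igfbp3 at -0.99 ± 0.21, under the fold threshold, and Igfbp2, Igfbp6 and Igfbp7 at -1.32, -0.42 and -0.33 did not pass the test. Between INSL3-KI and these libraries, Igf1r, with its unlike gene models, was the 1 member called, where 2.76% of 15728 genes were called higher, and Igf1 differed by -0.68 ± 0.11 (adjusted p = 0.0054), under the fold threshold, as did Igf2r by 0.58 ± 0.10. The other 6 members lay between -0.83 (Igfbp5) and 0.28 (Igfbp6) and did not pass the test.

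At P23, INSL3-KO testis held more of 7 members than WT testis, both from the second table, where 31.1% of 16732 genes were called higher. Whether the INSL3-KO difference changed between P8 and P23 was not tested, and the P8 comparison crosses the tables. Igfbp3 rose 14.3-fold, from 6.49, 8.97 and 8.25 CPM in WT to 114, 116 and 111 CPM in INSL3-KO, a change of 3.84 ± 0.10 (adjusted p = 1.7e-10). Igfbp6 rose 13.9-fold, from 27.4, 29.0 and 28.6 CPM to 394, 413 and 381 CPM, a change of 3.80 ± 0.05 (adjusted p = 2.2e-12). Igfbp4 rose 8.5-fold, a change of 3.09 ± 0.05 (adjusted p = 5.9e-12). The libraries within each group lay close together and the groups far apart for all 3 genes. Over all genes, the biological coefficient of variation was 0.086 in WT and 0.111 in INSL3-KO. It was 0.139 to 0.382 in the testis groups of the first table. The labels do not say that replicates are separate animals, so how far these p-values reflect variation between animals is not known.

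Igf1 rose from 23.2, 23.6 and 19.4 CPM in WT to 114, 116 and 113 CPM in INSL3-KO, a change of 2.36 ± 0.08 (adjusted p = 8.6e-10). Igfbp7 and Igfbp5 rose by 2.41 ± 0.07 and 2.27 ± 0.13, and Igf1r, here within 1 table, by 1.42 ± 0.14 (adjusted p = 4.1e-06). Igf2r and Igfbp2 differed by 0.52 ± 0.09 and 0.37 ± 0.09, with adjusted p of 0.00026 and 0.004, under the fold threshold.

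INSL3-KI testis at P23, compared with WT across the tables, had 5 members called higher, where 8.81% of 16603 genes were. One of these was Igf1r (3.11 by count), which compares unlike gene models and was at 1.46 ± 0.30 with limma on log2(FPKM + 1). Igfbp6 stood at 114, 84.3 and 204 CPM against 27.4 to 29.0 CPM in WT, a change of 2.26 ± 0.35 (adjusted p = 0.0037), Igfbp4 changed by 1.97 ± 0.22 (adjusted p = 0.0014), Igf2r by 1.38 ± 0.20 (adjusted p = 0.003) and Igf1 by 1.31 ± 0.20 (adjusted p = 0.0034). Igfbp2, Igfbp3, Igfbp5 and Igfbp7 were at 0.62, 1.72, 0.76 and 0.70 and were not called. Replicate 3 stood apart in the group, with Igfbp3 at 54.6 CPM against 13.2 and 8.78 CPM in the others. It held 32.9 CPM of spermatid genes against 330 and 449 CPM, and 5900 CPM of Sertoli cell genes against 3180 and 2460 CPM. Leaving out any 1 of the WT libraries ended all calls, with adjusted p of 0.013 for Igfbp4 and up to 0.024 for Igfbp6. Leaving out INSL3-KI replicate 1 ended those of Igf1, Igf2r and Igfbp6, while leaving out INSL3-KI replicate 3 ended none of the 5. Scaled on the Sertoli cell genes, which moved the median of all genes by -0.38, Igf1 was at 0.86 ± 0.28, Igf2r at 0.92 ± 0.26, Igfbp4 at 1.49 ± 0.28 (adjusted p = 0.019) and Igfbp6 at 1.68 ± 0.26 (adjusted p = 0.012), so that Igf1r alone stayed called.

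INSL3-KI testis had lower levels of 5 members than INSL3-KO testis at P23, again across the tables, where 13% of 16379 genes were called lower. Igfbp7 differed by -1.68 ± 0.29, Igfbp6 by -1.50 ± 0.33 and Igfbp5 by -1.46 ± 0.17 (adjusted p = 0.0026, 0.0064 and 0.00056). Igf1 and Igfbp4 differed by -1.01 ± 0.17 and -1.07 ± 0.20. The call of Igfbp5 alone held in every fit without 1 library, those of Igf1, Igfbp4 and Igfbp6 being lost in 5 of 6, all but that without INSL3-KI replicate 3, and that of Igfbp7 in 4 of 6, all but those without INSL3-KI replicate 2 or 3. Igf1r was called higher by count, where 25.2% of genes were, a call lost without any 1 INSL3-KO library, and it differed by 0.13 ± 0.31 in FPKM and did not pass the test there. Igf2r, Igfbp2 and Igfbp3 were at 0.91, 0.30 and -2.09 and were not called. Sertoli cell genes summed to 2460 to 5900 CPM in INSL3-KI and to 11600 to 11800 CPM in INSL3-KO, and scaling on them moved the median of all genes by 1.72. All 5 lower calls were then lost and 4 turned, with Igf1 at 0.65 ± 0.26, Igfbp4 at 0.56 ± 0.24, Igfbp5 at 0.28 ± 0.36, Igfbp6 at 0.04 ± 0.22 and Igfbp7 at -0.10 ± 0.23, while Igf2r, at 2.56 ± 0.26, and Igfbp2 (adjusted p = 0.0021) were called higher with Igf1r. Over all genes, that scaling called 9512 of 16379 higher and 76 lower.

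At P40, INSL3-KI testis held more of 5 members than WT testis of the same table, where 25.6% of 16677 genes were called higher. Igfbp6 rose 9.36-fold, from 33.5, 29.4 and 43.0 CPM to 291, 314 and 365 CPM, a change of 3.23 ± 0.22 (adjusted p = 0.00018). Igfbp4 rose 7.37-fold, from 34.1, 25.6 and 41.6 CPM to 163, 272 and 293 CPM, a change of 2.88 ± 0.32 (adjusted p = 0.00052). Igf1 rose 4.85-fold, from 15.6, 11.03 and 17.3 CPM to 48.2, 73.8 and 85.9 CPM, a change of 2.28 ± 0.29 (adjusted p = 0.00082). The groups of these genes were separate.

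Igf1r, in 1 gene model here, was at 26.3, 28.4 and 34.4 CPM in WT and at 85.4, 131 and 116 CPM in INSL3-KI, a change of 1.93 ± 0.21 (adjusted p = 0.00053), and Igfbp7 rose by 1.80 ± 0.19 (adjusted p = 0.00046). Igf2r differed by 0.99 ± 0.12, just under the fold threshold. Igfbp3 stood at 4.15, 4.13 and 24.9 CPM in WT and at 40.5, 93.5 and 76.9 CPM in INSL3-KI, a difference of 2.69 ± 0.82 with an adjusted p of 0.024, and Igfbp5 differed by 1.07 ± 0.51 (adjusted p = 0.097). Igfbp2 was at 0.52 ± 0.12, under the fold threshold.

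The change in INSL3-KI testis at P40 exceeded that at P8 for 8 of 9 members by the interaction term, where 23.2% of 17354 genes were called in that direction. The difference was largest for Igfbp5 at 4.13 ± 0.87, Igfbp4 at 3.97 ± 0.44, Igfbp3 at 3.76 ± 0.94 and Igf1 at 3.68 ± 0.40 (adjusted p = 0.0019, 5.1e-05, 0.0053 and 4.4e-05). It was 3.27 ± 0.24 for Igfbp6, 2.34 ± 0.30 for Igfbp7, 2.23 ± 0.26 for Igf1r and 1.26 ± 0.19 for Igf2r. For Igf1 this joined a called fall at P8 to a called rise at P40. Igfbp2, at 1.88 ± 0.65, did not pass the test (adjusted p = 0.026). The call of Igfbp3 was lost in 7 of the 12 fits without 1 library (3.49 to 3.91), namely without WT P8 replicate 2 or 3, any 1 INSL3-KI P8 library or INSL3-KI P40 replicate 2 or 3. Scaled on Sertoli cell genes, the interaction calls of Igf1, Igfbp4 and Igfbp6 stayed and those of Igf1r, Igf2r, Igfbp3, Igfbp5 and Igfbp7 were lost. That scaling moved the median of all genes by -1.44, to -1.46, and called 619 of 17354 genes higher and 7892 lower.

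**Figure D4:**
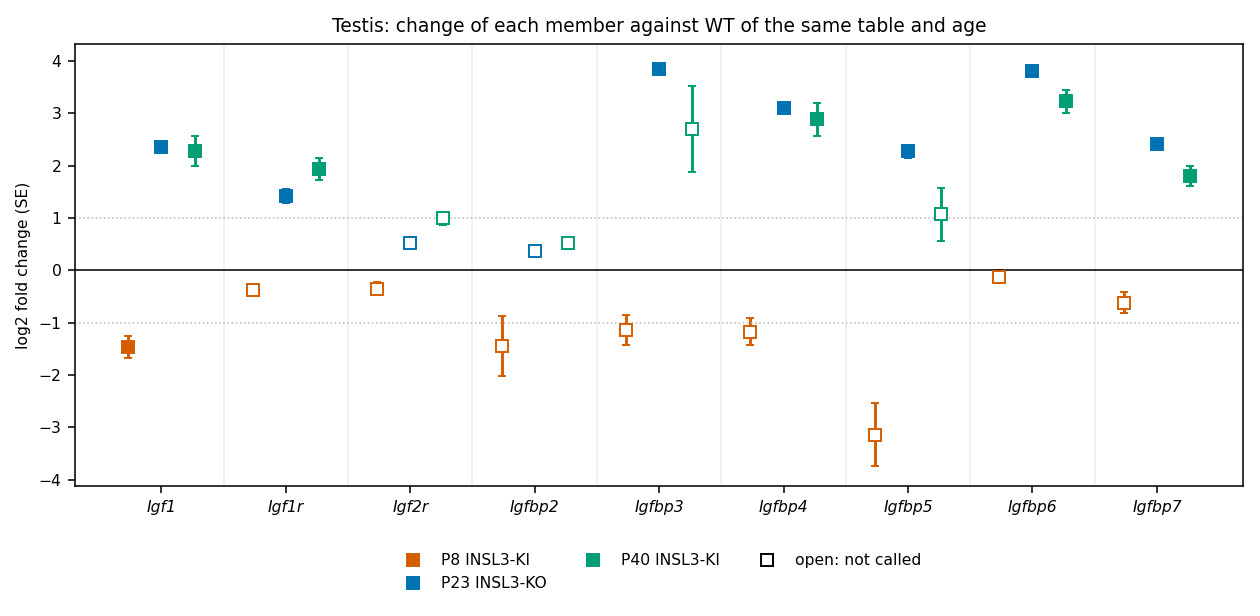
Log2 fold change of each member against WT testis of the same age and table, with bars of 1 SE, filled where the gene was called, dotted lines at a fold of 2. The P8 values lie below 0 for all 9 members and the P23 INSL3-KO and P40 INSL3-KI values above 0, a side that Igf1r, Igf2r, Igfbp2, Igfbp5 or Igfbp7 left in 1 or both when scaled on Sertoli cell genes.

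Spermatid genes were low in the older mutant testes, as given above, and Sertoli cell genes were higher. Sertoli cell genes summed to 2550 to 2620 CPM in WT at P23 and to 11600 to 11800 CPM in INSL3-KO, and to 2010 to 2260 CPM in WT at P40 and to 6220 to 8950 CPM in INSL3-KI. When libraries were scaled on these 9 genes, of which Clu made up 56.2 to 71.7% of the counts, the median of all genes moved by -2.16 in the P23 comparison of INSL3-KO and by -1.89 in the P40 comparison of INSL3-KI. Igfbp6 kept its call in both, at 1.64 ± 0.06 (adjusted p = 6.9e-10) and 1.33 ± 0.20 (adjusted p = 0.0013). Igfbp3 was at 1.68 ± 0.10 (adjusted p = 7.3e-08) at P23 and at 0.78 ± 0.71 at P40. Igf1 was at 0.20 ± 0.09 and 0.34 ± 0.20 and lost its calls, and Igf1r was at -0.74 ± 0.14 and 0.00 ± 0.12. Igf2r and Igfbp2 turned to -1.64 ± 0.09 and -1.79 ± 0.09 at P23 and to -0.92 ± 0.13 and -1.36 ± 0.21 at P40.

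**Figure D5:**
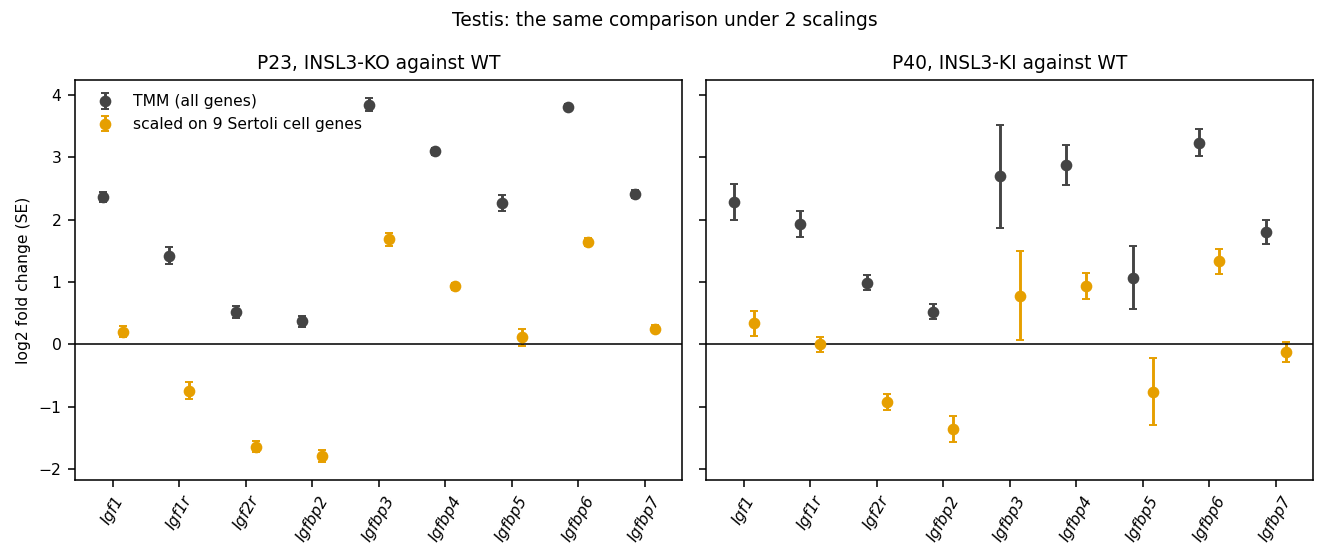
Log2 fold change of each member with bars of 1 SE under TMM scaling (grey) and under scaling on 9 Sertoli cell genes (orange), at P23 for INSL3-KO (left) and at P40 for INSL3-KI (right). Igfbp6 stays above 1 in both panels, at 1.64 and 1.33, while Igf2r and Igfbp2 fall below 0.

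Around the members, 42 further genes of the pathway were read as a list. In INSL3-KI gubernaculum at P8, 5 of 40 tested were called higher and 9 lower, with a median of -0.36, where 14.4% of all genes were called higher and 9.70% lower. The second ligand gene, Igf2, stood at 7099, 7570 and 7987 CPM in WT, at 248, 155 and 225 CPM in INSL3-KI and at 943, 1033 and 1034 CPM in INSL3-KO, changes of -5.15 ± 0.22 (adjusted p = 1.2e-06) and -2.92 ± 0.07 (adjusted p = 7.6e-07). Of the 3 genes for IGF2 mRNA-binding proteins, Igf2bp1 and Igf2bp3 fell in INSL3-KI by 3.16 ± 0.43 and 3.99 ± 0.27 on the log2 scale. Among regulators of binding-protein cleavage, Stc1, an inhibitor of PAPPA, rose by 3.68 ± 0.22, Pappa rose by 1.45 ± 0.24 and Pappa2, whose product cuts IGFBP5, fell by 1.44 ± 0.15. Of 6 adaptor genes, Grb10, Irs1 and Irs2 fell, by 2.73 ± 0.19, 1.33 ± 0.09 and 1.08 ± 0.18, and among the growth hormone genes Igfals and Jak2 rose, by 2.95 ± 0.49 and 1.14 ± 0.14. Akt2 and Eif4ebp1 fell by 1.02 ± 0.09 and 1.29 ± 0.14, and Pik3r1 rose by 1.58 ± 0.12.

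In INSL3-KO gubernaculum 5 of 41 pathway genes were called higher and 11 lower, where 15.5% and 15.2% of all genes were. Implied lengths agreed within 5% between the tables for 34 of the 42 genes, and Irs2, with a ratio of 0.641, is among those that did not. In INSL3-KI gubernaculum at P23 edgeR called 0 of 40, with 15 at an unadjusted p under 0.05, where it called 2.35% of all genes lower. DESeq2 called 7 pathway genes in either direction, where it called 838 of 17905 genes higher and 1397 lower. In INSL3-KI testis, 1 of 41 was called higher and 4 lower at P8, among them Igf2 (-2.29 ± 0.40) and Socs2 (-2.10 ± 0.31), where 3.03% of all genes were called higher and 3.25% lower. At P40, 19 of 41 were called higher and 4 lower, where 25.6% and 22.1% of all genes were. The P40 genes called higher included Htra1, a secreted protease (2.75 ± 0.20), Grb14 (2.26 ± 0.19) and Foxo3 (2.19 ± 0.21), and the lower ones were Pdpk1, Mtor, Igf2bp3 and Igfals. At P23, 21 of 40 were called higher and 6 lower in INSL3-KO testis, where 31.1% and 33.4% of all genes were, and 10 of 40 higher and 6 lower in INSL3-KI testis, where 8.81% and 11.8% were. In WT testis, 3 of 41 were called higher and 28 lower at P40 than at P8, where 31.9% and 27.8% of all genes were. In the testis interaction, 25 of 41 were called higher and 3 lower, where 23.2% and 22.5% of all genes were, and between WT gubernaculum and testis at P8, 7 of 41 were called higher and 9 lower, where 14.1% and 14.3% were.

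Over the 13 group means of log2 CPM, Igfbp3 and Igfbp4 correlated at 0.96 and Igf1 at 0.91 with each, while Igfbp2 correlated with the other members at 0.05 to 0.56, as a description over points that share tissues and tables. Igf1r gave 0.17 to 0.58, but its means mix counts of unlike gene models, so these values cannot be read as its likeness to the others. The genes most like 8 of the members, among 13868, were named by Pearson's r over the same 13 means. They were Cdh15 (0.949), Myh6 and Rragd for Igfbp2, Tmem119 (0.987), Sdc1 and Pdgfrl for Igfbp5, and Twf2 (0.962), Lhfp and Olfml2b for Igfbp6. For Igfbp3 they were Rcn3 (0.979), Slc37a3 and Fermt2, for Igfbp4 Ttl (0.989), Mtch1 and Lima1, and for Igfbp7 Dpagt1 (0.983), Ctsb and Vamp8. For Igf1 they were Rbmx (0.987), Map2k6 and Praf2 and for Igf2r Nes (0.983), Rbfox2 and Nuak1.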

How the data were processed

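Per the labels and the study's methods, the authors extracted RNA with TRIzol, made mRNA libraries with a Hieff NGS kit, read paired ends with a NovaSeq sequencer and used HISAT2 for mapping, and the submitters' processing notes name GRCm38. The counting program, annotation and strand setting are not given in the sources used here. The authors deposited unnormalised gene counts and, in 2 further tables, FPKM values that they had scaled by transcript length and library size. The tables were joined on Ensembl identifiers, and the 21561 shared genes held 94.16 to 97.86% of the counts of a library. How reads of the whale coding sequence were counted is not given in the sources used here.

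Levels are CPM with TMM over all 39 libraries. Comparisons used edgeR 4.0.16 (R 4.3.3, limma 3.58.1) in the compared groups alone, with TMM, filterByExpr (minimum count 10, total 15), the quasi-likelihood test and Benjamini-Hochberg adjusted p-values over every gene that passed the filter. Thresholds for calls, 0.01 for the adjusted p and 2 for the fold, follow the study. SEs are the log2 fold change over the root of the F statistic, and 95% intervals assume a normal distribution. Other choices were DESeq2 1.42.0, no filter, library size only, a replicate block, all groups of a tissue in 1 fit, limma on log2(FPKM + 1) and log2(FPKM + 0.1), scaling on a marker list, and each library left out. Scripts were checked on simulated data. The labels do not say that replicates are separate animals, so p-values measure the spread between samples. The 9 members, the 6 pathway lists and the 13 marker lists were chosen with earlier results of these data known. All members are given in every comparison, by value or by the range of those not called, pathway genes where called, and likenesses among genes whose highest group mean was at least 10 CPM. The genes most like Igf1r are not reported here. Figures used Python 3.11.15.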

Additional observations from a re-analysis of the deposited data

Results flagged for a closer look

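In gubernaculum, the effect of INSL3-KI against WT on Igfbp5 differed between P23 and P8 by -2.72 on the log2 scale in the interaction term (adjusted p = 0.0042, edgeR). The direction was the same at both ages, with every INSL3-KI library under every WT library. Scaled on fibroblast genes, the interaction was at -1.88 (adjusted p = 0.32, edgeR) and its call was lost, where 0 of 16016 genes were called either way.

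In testis, the effect of INSL3-KI against WT differed between P40 and P8 for 8 members in the interaction term. The differences were 3.68 for Igf1, 2.23 for Igf1r, 1.26 for Igf2r, 3.76 for Igfbp3, 3.97 for Igfbp4, 4.13 for Igfbp5, 3.27 for Igfbp6 and 2.34 for Igfbp7. Scaled on Sertoli cell genes, they were 2.21 for Igf1, 2.52 for Igfbp4 and 1.83 for Igfbp6, which stayed called. The calls of the others were lost, at 2.84 for Igfbp5, 2.35 for Igfbp3, 0.89 for Igfbp7, 0.74 for Igf1r and -0.17 for Igf2r. Under that scaling the median of all genes was -1.46, with 619 of 17354 genes called higher and 7892 lower.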

How the results depend on the processing

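Of 65 calls of members, 18 held in every alternative and 34 in every alternative but scaling on a marker list. Directions turned as follows, the cause not being tested. In INSL3-KI against WT gubernaculum at P8, Igf1 was at 0.24 with library size only, 0.24 with limma on log2(FPKM + 0.1), 0.23 on log2(FPKM + 1) and 0.95 on fibroblast scaling, where Igfbp4 was at 0.66. In INSL3-KI against INSL3-KO gubernaculum, Igfbp7 was at 0.14 with library size, 0.16 in both limma fits and 0.39 on fibroblast scaling, where Igfbp5 was at 0.03. Igfbp7 between WT tissues was at -0.09 with library size and -0.13 in both limma fits. Between WT gubernacula of P23 and P8, Igf1 was at -0.10 and -0.09 in the limma fits, and in the gubernaculum interaction Igf1 was at -0.10 and -0.09 and Igf1r at -0.09 and -0.11. Igfbp4 was at 0.01 in that interaction with all groups in 1 fit. On fibroblast scaling, Igfbp3 was at 0.29 in INSL3-KO gubernaculum, Igf2r, Igfbp3 and Igfbp4 were at 1.52, 0.97 and 1.52 in INSL3-KI at P23, Igfbp2 and Igfbp4 at 0.06 and 0.13 between WT ages, and Igfbp4 and Igfbp7 at 0.86 and 0.17 in the interaction. On Sertoli scaling, Igfbp2 and Igfbp3 were at 0.08 and 0.04 between INSL3-KI and the libraries labelled INSL3-KO at P8, Igf1r, Igf2r and Igfbp2 at -0.74, -1.64 and -1.79 in INSL3-KO at P23, Igf1, Igfbp4, Igfbp5 and Igfbp6 at 0.65, 0.56, 0.28 and 0.04 between the mutants at P23, Igf2r, Igfbp2, Igfbp5 and Igfbp7 at -0.92, -1.36, -0.76 and -0.13 at P40, and Igf2r at -0.17 in the testis interaction.

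Counts of members called moved by over 1.5 times as follows. DESeq2 called 3 in INSL3-KI gubernaculum at P23, 4 in INSL3-KI testis at P8 and 2 in the gubernaculum interaction, and with all groups in 1 fit these were 3, 4 and 2, with 1 between the P8 mutant gubernacula. All were lower, except 1 higher in each interaction and the 1 between the mutants. Over all genes DESeq2 called 838 of 17905 higher and 1397 lower at P23 and 1013 of 18464 and 1135 at P8. In the interaction it called 386 of 19702 higher and 738 lower. The 1 fit called 1013 of 16342 higher and 1467 lower at P23, and 958 of 17851 and 1203 at P8. It called 188 of 16342 and 302 in the interaction, and 1204 of 16342 and 1112 between the mutants. Library size only gave 5 in INSL3-KO gubernaculum, 1 between the P8 mutant gubernacula and 2 between the tissues, and both limma fits gave 5, 1 and 2 there, 2 in INSL3-KI gubernaculum at P23, 0 between INSL3-KI and the libraries labelled INSL3-KO in P8 testis and 8 at P40, with 1 between WT gubernaculum ages at log2(FPKM + 1). Of each 5, 2 were higher and 3 lower, and those between mutants and tissues were higher. Library size called 3029 of 15609 genes higher and 1988 lower in INSL3-KO. Between the mutants and between the tissues it called 2491 of 15642 and 1488 of 15624 higher. At log2(FPKM + 1) the genes higher were 2161, 1587 and 1185, with 1345 lower in INSL3-KO. The 2 at P23 were lower, as were 498 of 15082 genes, and the 8 higher, as were 5209 of 16677. Between WT ages 1 was lower, as were 534 of 14941 genes. Without a filter, 2 were called lower in INSL3-KI gubernaculum at P23, where 367 of 17905 genes were. Sertoli scaling gave 2 in INSL3-KI testis and 7 in the libraries labelled INSL3-KO testis at P8, 1 in INSL3-KI and 4 in INSL3-KO at P23, 3 between these mutants, 2 at P40 and 3 in the interaction. At P8 all were lower, where 1117 of 15702 and 3468 of 15723 genes were. At P23 the 1 in INSL3-KI was higher, where 104 of 16603 genes were. The 4 were 2 higher and 2 lower, where 212 of 16732 genes were higher and 11454 lower. Each 3 were higher, where 9512 of 16379 and 619 of 17354 genes were. The 2 at P40 were 1 higher and 1 lower, where 65 of 16677 genes were higher and 10427 lower. Fibroblast scaling gave 5 in INSL3-KO gubernaculum and 0 both between WT ages and in the interaction. Of the 5, 2 were higher and 3 lower, where 5375 of 15609 genes were higher and 1166 lower. Between WT ages 940 of 14941 genes were higher and 186 lower. In the interaction 0 of 16016 were higher and 0 lower.

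Whether replicate numbers pair the samples is not settled. No comparison had all 3 correlations of same-numbered libraries above 0.1, which cannot exclude pairing. They were -0.10, 0.31 and 0.46 between INSL3-KI and WT gubernaculum at P23. Between INSL3-KI and WT testis at P8 they were 0.20, -0.14 and 0.28. With the number as a replicate block, counts stayed within 1.5 times in 11 of 16 comparisons. They were 0 in INSL3-KI gubernaculum at P23, 0 in INSL3-KI testis at P8, 1 between WT gubernaculum ages, 3 between tissues and 0 in the gubernaculum interaction. The 1 was lower, where 275 of 14941 genes were, and the 3 were higher, where 1984 of 15624 were. Where 0 members were called, the block called 0 of 15082 genes in gubernaculum at P23. It called 5 of 15702 higher and 1 lower in P8 testis, and 1 of 16016 higher and 0 lower in the interaction. With the block Igf1 was at -0.14 in INSL3-KI gubernaculum at P23 and -0.01 between WT ages, and Igf1r at -0.00 in the interaction.

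Without 1 replicate, counts ranged from 0 to 2 in the gubernaculum interaction, 0 to 1 in INSL3-KI gubernaculum at P23, 1 to 7 between the P23 mutant testes, 0 to 5 in INSL3-KI testis at P23, 2 to 5 between tissues, 0 to 3 in INSL3-KI testis at P8, 1 to 5 in the libraries labelled INSL3-KO testis at P8 and 0 to 3 between WT gubernaculum ages. The shares over all genes in these fits are not reported here. Signs varied for Igf1, from -0.82 to 0.69 in the gubernaculum interaction, -0.96 to 0.62 in INSL3-KI gubernaculum at P23, -0.24 to 0.01 at P8 and -0.10 to 0.41 between WT ages. They varied for Igf1r (-0.37 to 0.37) and Igfbp4 (-0.85 to 0.28) in the interaction, Igfbp4 between WT ages (-0.58 to 0.03) and Igfbp7 in INSL3-KI gubernaculum at P23 (-0.14 to 0.52). Between INSL3-KI and the libraries labelled INSL3-KO in P8 testis they varied for Igfbp2 (-0.37 to 0.01), Igfbp3 (-0.33 to 0.02) and Igfbp4 (-0.01 to 0.24), and in INSL3-KI testis at P8 for Igfbp6 (-0.22 to 0.03).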
